A study of Mus musculus with 24 samples.

Results

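The basement membrane genes described here are the collagen IV chains *Col4a1*, *Col4a2* and *Col4a6*, the laminin chains *Lama2*, *Lama4*, *Lamb2* and *Lamc1*, the nidogens *Nid1* and *Nid2*, and *Hspg2*, which encodes perlecan. Their probes were found by name, as the non-control probes whose gene name is one of these symbols, but the list itself was drawn up with earlier results of these data known. They are 10 of the 22328 genes that could be named on the array, and they hold 15 probes. Of the 10 genes, 9 were bright enough to be among the 9186 genes tested, and *Nid2* was not.

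RNA of the whole *M. gastrocnemius*, a calf muscle, was measured in 24 male C57BL/6JOlaHsd mice, each on 1 array. The 12 Hypox mice had breathed 12% O2 and the 12 Norm mice 20.9% O2 for 6 h, and the muscle was taken directly after the exposure. Mice of both groups had arrived at 10 weeks of age and had then eaten a low-fat diet (10% of energy) for 3 weeks and a high-fat diet (40% of energy) for 6 weeks. They were housed individually and were fasted during the exposure, so that every Norm and Hypox mouse shared the diet and the fast. Muscle RNA was labelled with Cy5, and a pool of all samples with Cy3. Each value is a log2 ratio of muscle over pool, on which a difference of 1 is a doubling, and only differences between arrays are read from it, since its zero depends on the dyes. The arrays lay on 6 slides with 2 Norm and 2 Hypox arrays each. In Cy5 the mean signal of an array lay between 58.3 and 933 on Norm arrays and between 63.4 and 1010 on Hypox arrays, and it was lowest on the slide called slide 1 here. All 11 muscle fiber markers checked were well above background on every array.

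A basement membrane is a thin sheet of matrix that surrounds every muscle fiber and every capillary. Laminin trimers of an alpha, a beta and a gamma chain form a first network on the cell surface. Collagen IV forms a second, covalently linked network that withstands tension, and nidogens and perlecan tie both networks together. In muscle, *Lama2* is the alpha chain of the fiber's own laminin, and its loss causes a congenital muscular dystrophy. *Lama4* is best known from the sheets around capillaries and nerve, and *Lamb2* from the neuromuscular junction. *Lamc1* encodes the gamma chain that most laminins share.

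*Col4a1* and *Col4a2* encode the chains of the most widespread collagen IV, in which they join in 1 molecule. The genes lie head to head on chromosome 8, and the values of both moved together over the arrays, so their start regions are shown. These are the RefSeq windows of GRCm38.p6 from 250 bases before to 50 bases after the annotated start, at chr8:11312777-11313076 on the minus strand for *Col4a1* and at chr8:11312555-11312854 on the plus strand for *Col4a2*. Capitals mark the 78 bases that both windows share, read from opposite strands.
Col4a1: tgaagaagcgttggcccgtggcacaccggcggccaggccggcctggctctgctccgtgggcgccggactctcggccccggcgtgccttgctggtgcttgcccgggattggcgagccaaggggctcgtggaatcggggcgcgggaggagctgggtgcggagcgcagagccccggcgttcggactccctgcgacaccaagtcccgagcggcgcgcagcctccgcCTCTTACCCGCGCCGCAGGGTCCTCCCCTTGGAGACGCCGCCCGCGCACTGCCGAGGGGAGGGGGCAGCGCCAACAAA
Col4a2: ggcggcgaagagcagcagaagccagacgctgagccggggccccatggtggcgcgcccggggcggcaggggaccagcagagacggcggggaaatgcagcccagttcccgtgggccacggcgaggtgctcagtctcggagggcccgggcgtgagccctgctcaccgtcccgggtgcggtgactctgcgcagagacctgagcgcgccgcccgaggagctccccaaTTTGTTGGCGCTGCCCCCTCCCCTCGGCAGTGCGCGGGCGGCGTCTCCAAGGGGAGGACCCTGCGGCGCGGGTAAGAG
The starts lie 21 bases apart, and the shared stretch has a GC content of 73.1%. GC content is 74% over the *Col4a1* window and 73.7% over the *Col4a2* window, against a median of 52.7% over the 32851 windows counted. These, called all windows below, leave out windows of another length and a chromosome that holds none of the 10 genes. Windows were listed for 7 of the 10 genes, and *Col4a6* and its neighbour *Col4a5* on chromosome X are also head to head, with starts 1343 bases apart.

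Motif letters were searched on both strands of these windows. The core of a hypoxia response element, ACGTG or GCGTG, is the sequence that hypoxia-inducible factors bind. It was found 1 time in the *Col4a1* window, 1 time in that of *Col4a2*, 2 times in that of *Hspg2*, and in none of the other 4, and 43.8% of all windows hold it. The GC box GGGCGG, the letters bound by Sp1, was found 1 time for *Col4a1*, 3 times for *Col4a2* and 5 times for *Hspg2*. It was also found 1 time each for *Lama2*, *Nid1* and *Col4a6*, and 35.7% of all windows hold it. The GC box of *Col4a1* and 1 of those of *Col4a2* are the same bases of the shared stretch, read from opposite strands. The letters CCAAT were found 1 time each for *Col4a1*, *Col4a2* and *Nid1*, and in 37.4% of all windows. The FOXO core TGTTTAC was found in none of the 7, and in 3.65% of all windows. The *Lamb2* window holds none of these letters, and within a window no match overlapped another. A match describes these letters only, and no binding was measured.

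*Col4a1* and *Col4a2* were higher in Hypox at an unadjusted P-value, and the other 7 genes tested were not called. With limma's moderated test, 2 of the 9 genes had an unadjusted P-value under 0.05. The same was true of 12% of the 9186 genes tested. Since the list was drawn up with earlier results known, its count is not independent evidence. The collagen IV chain *Col4a4*, which is not on the list, was also tested (0.072, P-value = 0.466 in limma), and it is named here after its values were seen. The 2 called genes, *Col4a1* and *Col4a2*, were higher in Hypox, as were 7.08% of all genes tested at that threshold. None of the 9 was called lower, against 4.96%. After Benjamini-Hochberg adjustment over all genes tested, 0 of the 9 genes and 0.348% of all genes passed 0.05, and 0 of the 9 also passed with the methods' t-test. With arrays weighted by their quality 1 of the 9 passed, *Col4a1* (0.30, P-value = 0.00111, adjusted P-value = 0.0447 in limma), in a fit that called 265 of all genes. In the main comparison 5 genes had a higher and 4 a lower mean in Hypox. The median difference over the 9 genes was 0.087 on the log2 scale, against 0.029 over all genes tested. It was 0.013 without Hypox replicate 2, where that of all genes was 0.021, 0.040 without Norm replicate 4 and 0.056 without Hypox replicate 9. Each P-value measures the spread between 12 mice a group, and with RNA of whole muscle fewer cells of a type and less RNA per cell cannot be told apart.

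**Figure D1:**
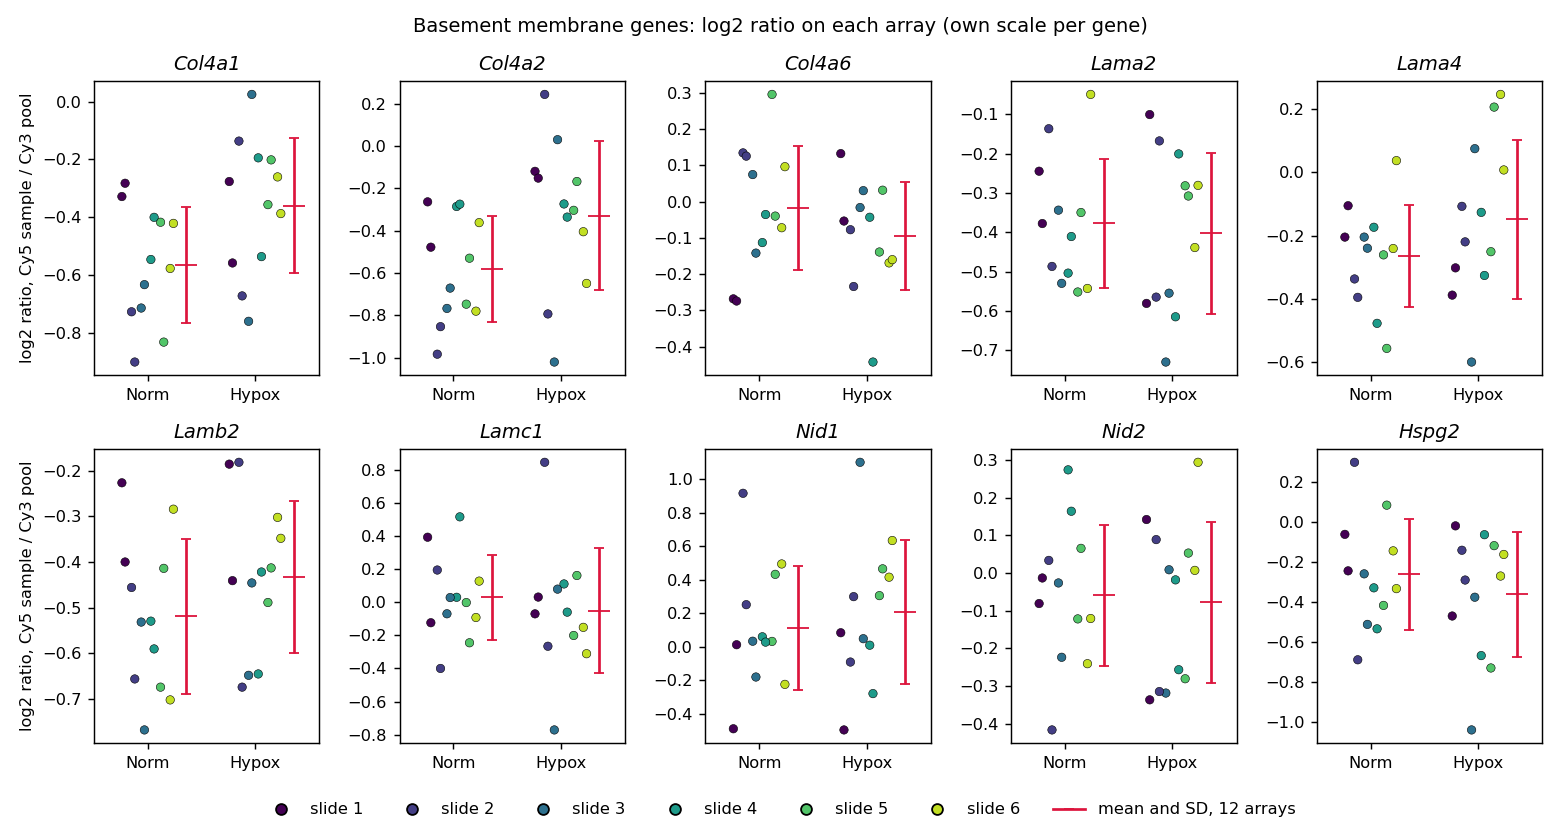
Log2 ratio of Cy5 (muscle) over Cy3 (pool) on each array for the 10 genes, each panel on its own scale, with points coloured by slide and the mean and SD of 12 arrays in red. The Norm and Hypox points overlap in every panel, and in the Col4a1 panel 6 Hypox points lie above all Norm points.

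In Norm the *Col4a1* ratio had a median of -0.56, with a lowest value of -0.90 and a highest of -0.28, and the Hypox arrays spanned -0.76 to 0.025 around a median of -0.32. The groups overlapped, with 6 Hypox arrays above every Norm array and 10 of 12 above the Norm median. The highest array was Hypox replicate 3 and the lowest Norm replicate 9. The mean was -0.57 ± 0.20 (SD, n = 12) in Norm and -0.36 ± 0.23 in Hypox. The log2 difference was 0.21 ± 0.09 (SE; 95% confidence interval 0.022 to 0.39; limma, P-value = 0.0298, adjusted P-value = 0.349). Within slides the Hypox mean was the higher one on 5 of 6 slides, with differences from -0.11 on slide 1 to 0.41 on slide 2. The call was lost without Norm replicate 7 (P-value = 0.0561 in limma), Norm replicate 9 (P-value = 0.0585 in limma), Hypox replicate 3 (P-value = 0.0623 in limma) or Hypox replicate 5 (P-value = 0.0528 in limma). It was also lost in the Cy5 channel alone, where the difference was 0.20 (P-value = 0.0648 in limma), and in the mean of the 10 deposited spots, where it was 0.31 (P-value = 0.0547 in limma). Taken singly, 3 of these 10 spots had a limma P-value under 0.05, with differences of 0.42, 0.45 and 0.46. The processed signals of the scanner software (0.25, P-value = 0.101 in limma) and ratios centred on each array's median without loess (0.44, P-value = 0.165 in limma) did not give the call either.

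The probe for *Col4a1* lies at chr8:11199009-11199068 (mm9, minus strand), as the files place it (exons and untranslated regions were not checked here), and is printed in 10 spots on each array. Taken spot by spot, the difference between the group means ranged from 0.074 to 0.31, and it was above 0 in 10 of 10 spots. The spots share the same RNA and are not replicates. They show how far a single spot can lie from the mean of all 10.

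*Col4a2* was more variable in these ratios, but it was read from 1 spot, while each *Col4a1* value is a mean of 10. In the deposited values the Norm SD was 0.287 for *Col4a2* and 0.301 to 0.467 for single *Col4a1* spots. The Hypox SDs were 0.427 and 0.362 to 0.57. Across the Norm arrays the *Col4a2* ratio lay between -0.98 and -0.26 (median -0.60), and across the Hypox arrays between -1.02 and 0.24 (median -0.29). The groups overlapped, and Hypox held both the lowest array, replicate 2, and the highest, replicate 5. In Hypox 5 arrays lay above and 1 below every Norm array, and 9 of 12 lay above the Norm median. The mean was -0.58 ± 0.25 (SD, n = 12) in Norm and -0.33 ± 0.35 in Hypox. Hypox minus Norm gave 0.25 ± 0.12 (SE; 95% confidence interval 0.0091 to 0.50; limma, P-value = 0.0426, adjusted P-value = 0.388).

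The *Col4a2* difference was above 0 on 5 of 6 slides, from -0.025 on slide 4 to 0.64 on slide 2. Of the 24 fits that leave out 1 array 10 kept the call, against 20 for *Col4a1*. It was lost without Norm replicate 1, 3, 5, 6, 9 or 10, or without Hypox replicate 1, 3, 4, 5, 6, 10, 11 or 12, at limma P-values from 0.0511 to 0.0888. It was also lost without slide 1 (0.26, P-value = 0.0646 in limma) and with the methods' t-test (P-value = 0.0535 over 24 arrays), which does not share the spread between genes. With median centring it was 0.47 (P-value = 0.127 in limma), and with replicate number as a block 0.25 (P-value = 0.069 in limma). The call held in settings where that of *Col4a1* was lost. The difference was 0.31 with the processed signals (P-value = 0.0159 in limma), 0.28 in the Cy5 channel alone (P-value = 0.0177 in limma) and 0.33 in the deposited values (P-value = 0.0377 in limma). The single probe of *Col4a2* lies at chr8:11448840-11448899 (mm9, plus strand).

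*Col4a6* encodes a chain of a rarer collagen IV, which is known from basement membranes of smooth muscle. Norm arrays gave ratios of -0.27 at the lowest, -0.038 at the median and 0.29 at the highest, against -0.44, -0.066 and 0.13 in Hypox. The groups overlapped, with no Hypox array above every Norm array and 1 below. On the log2 scale Hypox minus Norm was -0.077 ± 0.071 (SE; 95% confidence interval -0.22 to 0.070; limma, P-value = 0.293). It was -0.045 without Hypox replicate 10 and -0.048 without Norm replicate 5. It was below 0 on 4 of 6 slides and 0.31 on slide 1.

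The sign and the call of this gene depended on the source of the values. The difference was -0.27 in the deposited values (P-value = 0.04 in limma), -0.15 without slide 1 (P-value = 0.0474 in limma) and 0.040 in the Cy5 channel alone (P-value = 0.699 in limma). The probe, at chrX:137601433-137601491 (mm9), was dim, with a mean Cy5 signal 2.16 times the local background, and lay well above background on 7 Norm and on 7 Hypox arrays. The second *Col4a6* probe was well above background on no array, and its difference was 0.021. The neighbour *Col4a5* did not pass the filter on dim probes.

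**Figure D2:**
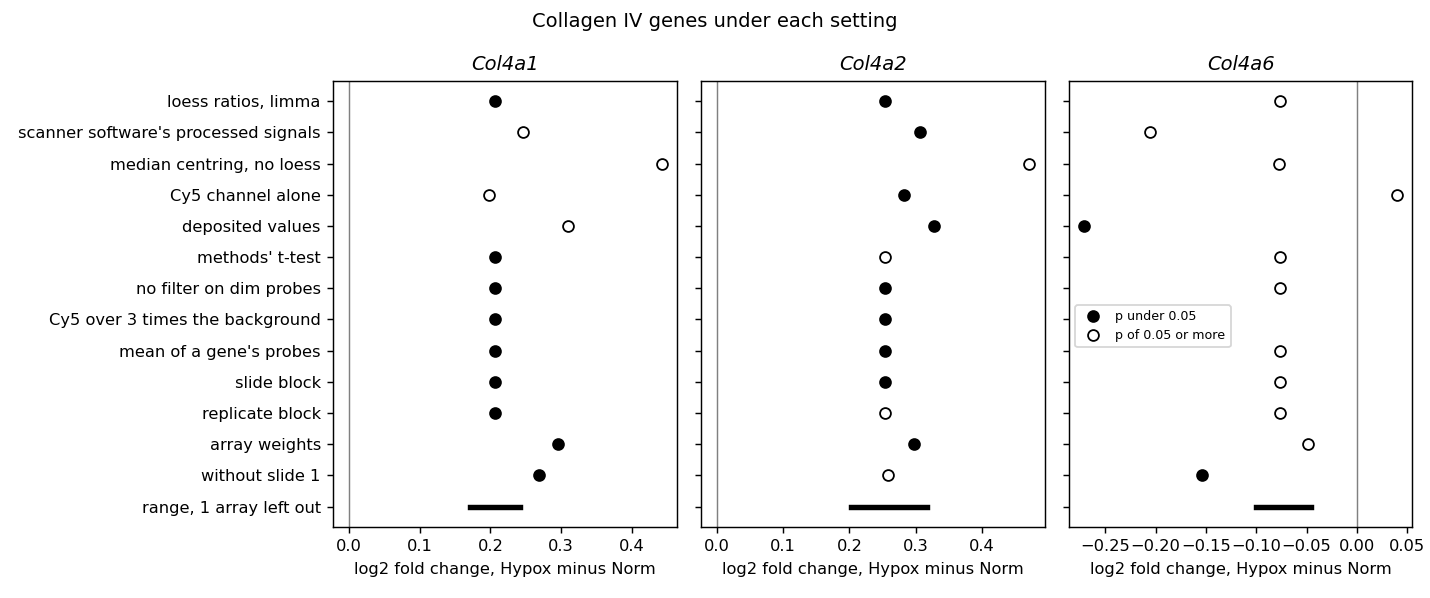
Log2 fold change (Hypox minus Norm) of Col4a1, Col4a2 and Col4a6 under each way of making or testing the values, with filled points for an unadjusted P-value under 0.05 and a bar for the range when 1 array is left out. Col4a1 and Col4a2 lie above 0 throughout, and Col4a6 runs from -0.27 to 0.040.

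None of the laminin chains was called. *Lama2*, the alpha chain of the muscle fiber, had the smallest mean difference of the 4. Its probe lies at chr10:26701380-26701439 (mm9). In Norm the ratio had a median of -0.39, with a lowest value of -0.55 and a highest of -0.050, and the Hypox arrays spanned -0.73 to -0.10 around a median of -0.37. The medians lay close together, and 5 Hypox arrays lay below every Norm array. The log2 difference was -0.024 ± 0.079 (SE; 95% confidence interval -0.19 to 0.14; limma, P-value = 0.759). Its sign was not stable, since a second *Lama2* probe past the filter gave 0.070 and the deposited values 0.014.

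*Lama4*, the laminin chain best known from capillaries, had a higher mean in Hypox. Its probe lies at chr10:38825794-38825853 (mm9). Across the Norm arrays the ratio lay between -0.56 and 0.036 (median -0.24), and across the Hypox arrays between -0.60 and 0.25 (median -0.17). The groups overlapped, with 3 Hypox arrays above and 1 below every Norm array. Hypox minus Norm gave 0.11 ± 0.087 (SE; 95% confidence interval -0.065 to 0.29; limma, P-value = 0.202). With arrays weighted by their quality it was 0.21 (P-value = 0.0149, adjusted P-value = 0.15 in limma). It was above 0 on 4 of 6 slides. The probe was well above background on 8 Norm and 9 Hypox arrays.

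*Lamb2* was the gene whose slides differed least. Its probe lies at chr9:108392189-108392248 (mm9). Norm arrays gave ratios of -0.77 at the lowest, -0.53 at the median and -0.23 at the highest, against -0.67, -0.43 and -0.18 in Hypox. In Hypox 2 arrays lay above every Norm array, and 9 of 12 lay above the Norm median. The Hypox mean was the higher one on 6 of 6 slides, by between 6.1e-05 on slide 1 and 0.17 on slide 6. On the log2 scale Hypox minus Norm was 0.087 ± 0.074 (SE; 95% confidence interval -0.065 to 0.24; limma, P-value = 0.25), and its P-value with slide as a block was 0.233.

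*Lamc1*, the gamma chain shared by most laminins, spread widely. Its probe lies at chr1:155066156-155066215 (mm9). In Norm the ratio had a median of 0.013, with a lowest value of -0.40 and a highest of 0.51, and the Hypox arrays spanned -0.77 to 0.84 around a median of -0.065. Both the lowest array, replicate 2, and the highest, replicate 5, were Hypox arrays. The log2 difference was -0.080 ± 0.13 (SE; 95% confidence interval -0.34 to 0.18; limma, P-value = 0.529). Leaving out 1 array moved it between -0.16 (without Hypox replicate 5) and -0.014 (without Hypox replicate 2). It was below 0 on 4 of 6 slides, and 0.10 in the deposited values.

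The nidogens, which bridge laminin and collagen IV, were not called. The brightest *Nid1* probe lies at chr13:13604435-13604494 (mm9). Across the Norm arrays the *Nid1* ratio lay between -0.49 and 0.92 (median 0.031), and across the Hypox arrays between -0.50 and 1.10 (median 0.19). Hypox minus Norm gave 0.095 ± 0.15 (SE; 95% confidence interval -0.22 to 0.41; limma, P-value = 0.541). Leaving out 1 array moved it between 0.013 (without Hypox replicate 2) and 0.17 (without Norm replicate 3). The slides ran from -0.48 on slide 2 to 0.65 on slide 3. A pair of further *Nid1* probes, both under the filter, gave 0.029 and 0.034.

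*Nid2* was under the filter, with a mean Cy5 signal 1.96 times the background, and its values come from a fit of all 22328 named genes. Norm arrays gave ratios of -0.42 at the lowest, -0.054 at the median and 0.27 at the highest, against -0.34, -0.0057 and 0.29 in Hypox. On the log2 scale Hypox minus Norm was -0.019 (limma, P-value = 0.816, adjusted P-value = 0.969). The probe, at chr14:20630490-20630549 (mm9), was well above background on 5 Norm and 6 Hypox arrays.

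Perlecan is a large proteoglycan that holds growth factors in the matrix. Its brighter probe lies at chr4:137126392-137126451 (mm9). In Norm the *Hspg2* ratio had a median of -0.29, with a lowest value of -0.69 and a highest of 0.30, and the Hypox arrays spanned -1.04 to -0.019 around a median of -0.28. The medians lay close together, with 2 Hypox arrays below every Norm array and none above. The log2 difference was -0.10 ± 0.12 (SE; 95% confidence interval -0.34 to 0.14; limma, P-value = 0.392). It was -0.039 without Hypox replicate 2 and -0.050 without Norm replicate 3. With the processed signals the difference was -0.23 (P-value = 0.0683 in limma), and in the deposited values -0.0019 (P-value = 0.993 in limma). A dim second probe gave -0.14 (limma, P-value = 0.0528).

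**Figure D3:**
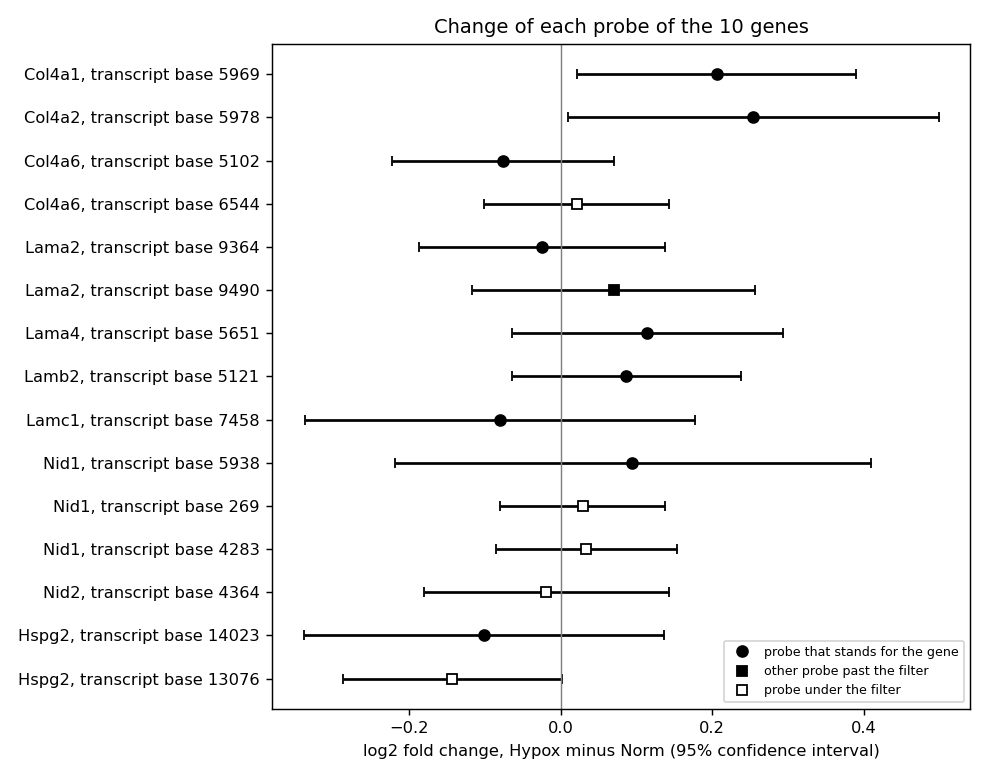
Log2 fold change (Hypox minus Norm) of each of the 15 probes with its 95% confidence interval, labelled by gene and the transcript base at which the files start the probe. Round points come from the fit over genes and squares from a fit over probes. Only the intervals of the Col4a1 and Col4a2 probes lie above 0, from 0.022 and 0.0091.

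**Figure D4:**
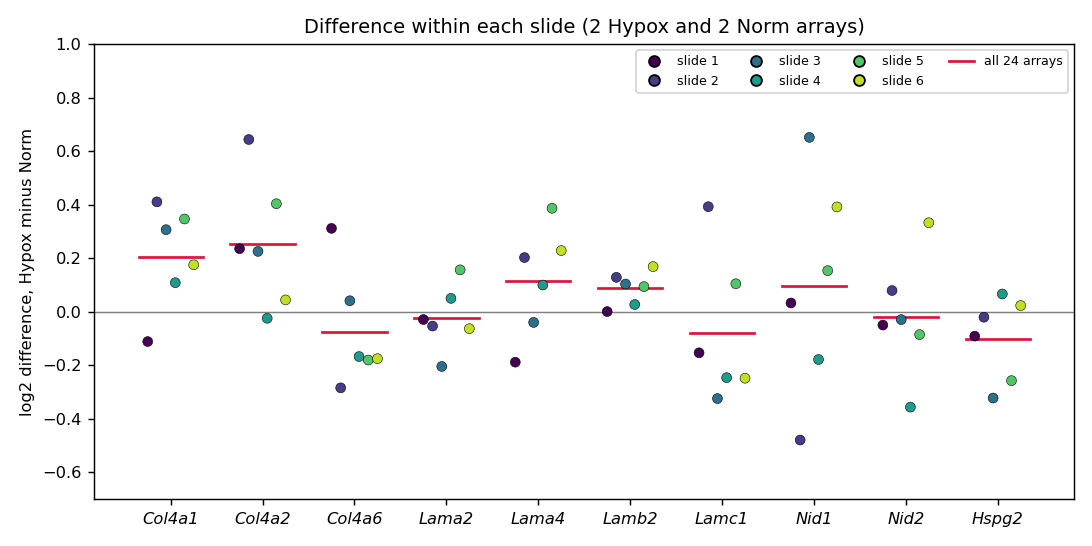
Mean of 2 Hypox arrays minus mean of 2 Norm arrays on each of 6 slides, on the log2 scale, for the 10 genes, with the difference over 24 arrays in red. Col4a1 and Col4a2 lie above 0 on 5 of 6 slides and Lamb2 on 6 of 6, and the slides of Nid1 run from -0.48 to 0.65.

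The genes were then set against each other over the 24 arrays, where chains of the same molecule can be compared in the same muscle. Of 36 pairs of the 9 genes tested, 8 had a correlation with an adjusted P-value under 0.05 (2-sided permutation test, Benjamini-Hochberg over the 36 pairs), 6 positive and 2 negative. Their r was at least 0.513 in size, which 22.2% of the 36 pairs and 6.95% of the 42186705 pairs of all genes tested reached. This is a description, since pairs share genes and arrays. In these ratios *Col4a1* and *Col4a2* had the highest correlation of the 36 pairs, a size reached by 0.437% of all pairs (Pearson's r = 0.77, permutation P-value = 2e-05, adjusted 0.00072, Spearman's rho = 0.779, permutation P-value = 3e-05, adjusted 0.00108). With group means removed its r was 0.721, below the 0.765 of *Col4a2* with *Lamc1*. Without the 2 arrays farthest from the median of *Col4a1*, the gene named first in the pair, r of *Col4a1* with *Col4a2* was 0.719 (permutation P-value = 0.00017, adjusted 0.00612). With slide means removed and permutation within slides it was 0.776 (P-value = 0.00825, adjusted 0.0742). The size of this correlation was thus kept with the slides removed, while its adjusted P-value exceeded 0.05.

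*Col4a1* also followed *Lama4* (r = 0.657, adjusted permutation P-value = 0.0066, rho = 0.647, adjusted 0.0169). This was the 1 pair of the 36 with an adjusted P-value under 0.05 with slide means removed (r = 0.738, adjusted permutation P-value = 0.0169). Without the 2 farthest arrays r was 0.608 (adjusted permutation P-value = 0.0414).

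*Col4a2* followed *Lamc1* (r = 0.644, adjusted permutation P-value = 0.0066, rho = 0.59, adjusted 0.0255) and *Lamb2* (r = 0.607, adjusted 0.015, rho = 0.59, adjusted 0.0255). Without the 2 arrays farthest from the *Col4a2* median, which also narrows its range, r was 0.393 for *Lamc1* (permutation P-value = 0.0679) and 0.496 for *Lamb2* (adjusted permutation P-value = 0.118). For *Col4a2* with *Lamc1* r was 0.765 with group means removed (adjusted permutation P-value = 0.00072) and 0.656 with slide means removed (adjusted 0.112). *Lama2* followed *Hspg2* (r = 0.593, adjusted permutation P-value = 0.016, rho = 0.541, adjusted 0.0453), and *Col4a1* followed *Lamc1* (r = 0.513, adjusted 0.0448, rho = 0.442, adjusted 0.115). *Nid1* ran against *Col4a2* (r = -0.574, adjusted permutation P-value = 0.0205, rho = -0.5, adjusted 0.0626) and against *Lamc1* (r = -0.522, adjusted 0.0448, rho = -0.52, adjusted 0.0501). The rank correlation of these last 3 pairs thus did not pass 0.05 after adjustment. Without the 2 farthest arrays none of these 6 pairs passed 0.05 after adjustment, but r stayed at 0.561 for *Lama2* with *Hspg2* and at 0.494 for *Col4a1* with *Lamc1*. It was -0.481 for *Col4a2* with *Nid1* and -0.354 for *Lamc1* with *Nid1*.

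The deposited values gave another picture of these pairs. There *Nid1* and *Col4a2* had r = 0.343, and *Col4a1* and *Col4a2* 0.89. The highest there was *Lama2* with *Hspg2*, at 0.908. Over the 36 pairs, 29 had an adjusted permutation P-value under 0.05, 22 of them positive, and the median r was 0.583, against 0.121 for the ratios. On each array the deposited values followed the log2 Cy5 signal (r from 0.967 to 0.999) more closely than that of Cy3 (0.892 to 0.992). They thus vary as an intensity does, unlike the ratios. How the authors used the pool channel in the deposited values is not known, and the brightness of an array was not tested as a part of these correlations.

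**Figure D5:**
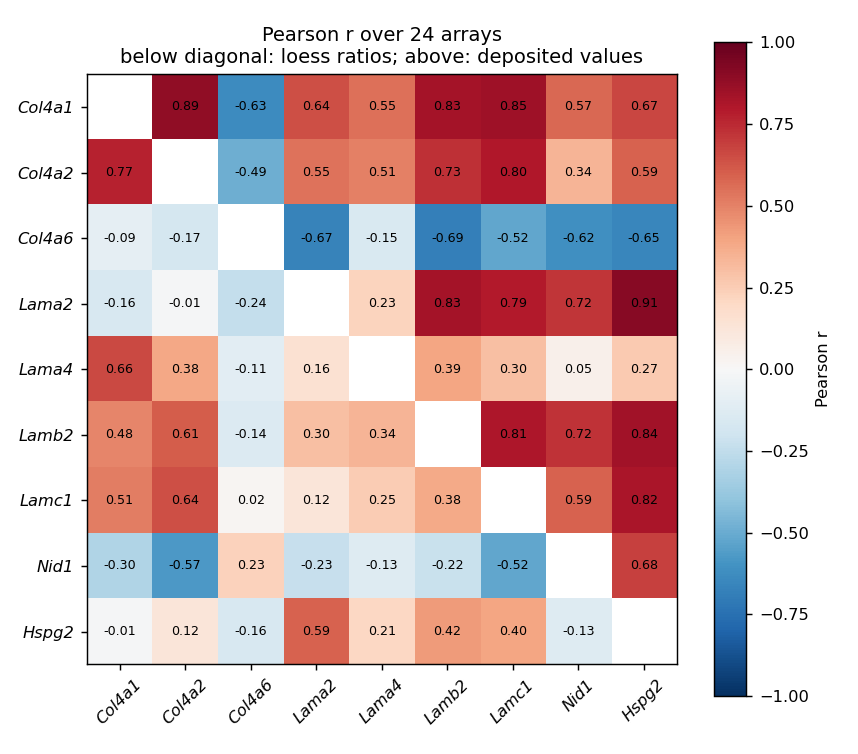
Pearson's r over 24 arrays for each pair of the 9 genes tested, from log2 ratios below the diagonal and from the deposited values above it. Col4a1 with Col4a2 is high in both, at 0.77 and 0.89, and Col4a2 with Nid1 turns from -0.57 to 0.34.

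The genes most like *Col4a1* over the 24 arrays, with slide means removed, were *Srpr* (Pearson's r = 0.893), *Rnasek* (0.833), *Arpc4* (0.831), *Snx3* (0.83) and *Gtpbp1* (0.824). *Srpr* encodes a part of the receptor that brings new secretory proteins to the endoplasmic reticulum. *Col4a2* came at rank 17 of all genes and *Lama4* at rank 41. In the reverse order *Col4a1* came at rank 88 among the genes most like *Col4a2*, and *Lama4* at rank 654. *Lamc1* came at rank 288 for *Col4a1*, and for *Col4a2* *Lamb2* came at rank 322 and *Lamc1* at rank 350. This order is a description.

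Of the other basement membrane genes, 15 of 31 were tested, and 0 were called in either direction at the unadjusted P-value of 0.05 in limma, against 12% of all genes tested. Their median difference was -0.00019. The 4 with the smallest P-values were the collagen VI chain *Col6a3* (0.21, P-value = 0.135 in limma), the endostatin-bearing *Col18a1* (0.11, P-value = 0.204), *Vwa1* (0.11, P-value = 0.239) and the collagen-binding *Sparc* (-0.19, P-value = 0.244).

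Of the cell receptors, 16 of 26 were tested, and 2 were lower and 0 higher at the unadjusted threshold, which 4.96% of all genes tested passed as lower and 7.08% as higher. *Ddr2*, a collagen receptor kinase, was lower by a log2 difference of -0.26 (limma, P-value = 0.00472, adjusted P-value = 0.198). *Itgb1*, the beta chain of the integrins that bind laminin and collagen IV, was lower by -0.19 (limma, P-value = 0.0128, adjusted P-value = 0.262). *Itga6* differed by 0.29 (P-value = 0.102 in limma), *Gpc1* by -0.19 (P-value = 0.127) and *Dag1*, which encodes the laminin receptor dystroglycan, by -0.11 (P-value = 0.408).

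Of the genes that make, fold, export and crosslink collagen IV, 23 of 31 were tested. None was called at the unadjusted threshold in limma, against 12% of all genes tested. In this list 17 had a higher and 6 a lower mean in Hypox, and the median difference was 0.088. In all genes tested 5388 had a higher and 3798 a lower mean. The smallest P-values were those of the prolyl 3-hydroxylase family members *P3h4* (0.18, P-value = 0.0775 in limma) and *P3h3* (0.13, P-value = 0.0839), of *P4hb* (0.10, P-value = 0.136), a subunit of prolyl 4-hydroxylase, and of the chaperone gene *Hspa5* (0.14, P-value = 0.153).

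Of the proteases of the matrix and their inhibitors, 10 of 22 were tested, and 3 were lower and 1 higher at the unadjusted threshold, against 4.96% and 7.08% of all genes tested. The lower ones were the protease *Adamts1* (-0.40, P-value = 0.00581, adjusted 0.206 in limma) and the metalloproteinase inhibitors *Timp2* (-0.40, P-value = 0.00884, adjusted 0.236) and *Timp3* (-0.34, P-value = 0.0293, adjusted 0.346). The inhibitor *Timp4* was higher (0.22, P-value = 0.0284, adjusted 0.341).

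Markers of other cell types were counted at the same unadjusted threshold, which 7.08% of all genes tested passed as higher and 4.96% as lower. After adjustment in limma 0 markers of any list passed. Of 14 endothelium markers 11 were tested, and 3 of them were called higher and 0 called lower, while 4 had a lower mean. Each of the 14 was well above background on at least 1 array. Their mean ratio lay between -0.35 and -0.021 on Norm arrays and between -0.21 and -0.051 on Hypox arrays, a difference of 0.089, and it was higher in Hypox on 6 of 6 slides. Their part in the collagen IV values was not tested.

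Of 9 lung markers 2 were tested, and 1 was higher at that threshold, *Sftpc* (0.81, P-value = 0.0163, adjusted 0.281 in limma). The other, *Lamp3*, differed by 0.14 (P-value = 0.0606 in limma). The mean of these 2 lay between -0.90 and -0.11 on Norm arrays and between -0.72 and 1.33 on Hypox arrays, a difference of 0.48 that was above 0 on 6 of 6 slides. Lung markers *Cldn18*, *Scgb1a1* and *Slc34a2* were well above background on no array. The part of lung RNA in these values was not tested.

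All 7 Schwann cell markers tested, of 9, had a lower mean in Hypox, and 2 were called. Their mean lay between -0.24 and 0.56 on Norm arrays and between -0.33 and 0.22 on Hypox arrays, a difference of -0.14 that was above 0 on 0 of 6 slides. All 5 adipocyte markers tested, of 7, also had a lower mean, and 2 were called, with a mean ratio between -0.68 and 0.96 on Norm arrays and between -0.72 and -0.12 on Hypox arrays. Their difference was -0.27, and it was above 0 on 0 of 6 slides. *Lep* was well above background on no array.

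Of 10 fibroblast markers, all tested, 2 were lower and 0 higher at the threshold, with a mean ratio between -0.34 and 0.27 on Norm arrays and between -0.41 and 0.35 on Hypox arrays, a difference of -0.072 that was above 0 on 2 of 6 slides. Of 10 pericyte and smooth muscle markers, all tested, 1 was higher and 1 lower, with a mean ratio between -0.16 and 0.21 on Norm arrays and between -0.26 and 0.098 on Hypox arrays, a difference of -0.077 that was above 0 on 0 of 6 slides. Of 8 macrophage markers 4 were tested and 0 were called in limma, with a mean ratio between -0.32 and 0.26 on Norm arrays and between -0.45 and 0.33 on Hypox arrays. Their difference was -0.012, above 0 on 4 of 6 slides, and *Cd163* and *Ptprc* were well above background on no array. Of the 11 muscle fiber markers 0 were called, with a mean ratio between -0.070 and 2.22 on Norm arrays and between 0.071 and 2.12 on Hypox arrays, a difference of -0.19 that was above 0 on 3 of 6 slides. The part of these cell types in the values of the basement membrane genes was not tested.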

How the data were processed

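Total RNA of 24 muscles (12 Norm, 12 Hypox) was hybridised on 24 2-colour arrays, with the dyes taken from the sample descriptions. Spot intensities were deposited by the authors in the form written by Agilent Feature Extraction (version 10.7.3.1, per the submitters' processing notes), without normalization between arrays. The authors also deposited normalized log2 values for 21335 spots, made with GeneMaths XT. The median of each column of these was 6.58, and their use of the Cy3 channel stays unknown. Groups were taken from the sample labels and slides from the scanner output.

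Control spots and 7260 flagged spot readings were left out, and 0 Cy5 readings were saturated. The mean signal was corrected with normexp (offset 50), and the log2 ratio of both dyes was normalized within arrays by loess. Each probe took the mean of its spots. RefSeq accessions named 27235 of the 55681 probes, symbols 3581 and synonyms 565, and 24300 had no name. A probe entered the tests when its mean Cy5 signal was more than 2 times the local background and no more than 4 arrays lacked it. The brightest probe stood for its gene (9186 genes, 1772 of them with over 1 probe). The groups were compared with limma (lmFit and eBayes, no block), and P-values were adjusted over all genes tested after Benjamini-Hochberg. Correlations were tested with 100000 permutations. Arrays give no counts, so their number and the spot brightness limit the precision. Between 9.42% and 37.8% of spots per array were well above background in Cy5.

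The genes and lists were chosen with earlier results of these data known. The rule names all 10 genes, up to 4 genes of each pathway list by smallest P-value, *Col4a5*, *Itgb1* and *Dag1*, and the 5 genes most like *Col4a1*. Lists were written from general knowledge and are described by counts. The alternatives were processed signals, median centring, the methods' t-test, Cy5 alone, values as deposited, other filters, the mean of probes, slide or replicate number as a block, array weights, leaving out each array, and, added after seeing the data, leaving out slide 1. The tests were tested on simulated data. Software was R 4.3.3 with limma 3.58.1, and Python 3.11.15 with pandas 2.3.3, numpy 2.4.6 and, for plots, matplotlib 3.10.9. Promoter windows came from RefSeq (GRCm38.p6), and probe positions (mm9) from the array files.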

Additional observations from a re-analysis of the deposited data

How the results depend on the processing

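Of the 12 alternatives, 6 change the test, the filter or the use of a gene's probes. They leave the differences of *Col4a1* and *Col4a2* as they were. Under the others, which change the values, weights or arrays, both stayed positive (up to 0.44 and 0.47), as they did with each array left out (0.17 to 0.24 and 0.20 to 0.32). *Lama4*, *Lamb2* and *Nid1* also stayed positive under the alternatives that gave them a value. *Lama2* turned to 0.22 with median centring, 0.014 in the deposited values and 0.023 with the mean of probes, and ran from -0.052 to 0.0053 with 1 array left out. *Lamc1* turned to 0.25 with median centring and 0.10 in the deposited values, *Hspg2* to 0.19 with median centring, and *Col4a6* to 0.040 in Cy5 alone. Median centring put the median of all genes at 0.25, so these signs are relative to that shift.

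The genes called at the unadjusted threshold were 2 of the 9. They were 1 with processed signals, Cy5 alone, the t-test or the replicate block, 0 with median centring, 3 with array weights (*Lama4* in addition), and 0 to 2 with 1 array left out. In the deposited values the 2 called were *Col4a2* and *Col4a6*, and without slide 1 *Col4a1* and *Col4a6*. After adjustment 1 (*Col4a1*) passed with array weights, and 0 of the 9 with 1 array left out. Over all genes, 1106 were called unadjusted, against 32 with median centring, 729 in Cy5 alone, 506 in the deposited values, 1939 without the filter, 1716 with array weights and 965 to 1280 with 1 array left out. After adjustment 32 were called, against 61 with processed signals, 0 with median centring, 12 in Cy5 alone, 1 in the deposited values, 9 with the t-test, 8 without the filter, 62 with the slide block, 11 with the replicate block, 265 with array weights and 4 to 51 with 1 array left out. Of the unadjusted calls 58.8% were higher in Hypox, against 33.7% with processed signals, 100% with median centring and 50.2% in Cy5 alone.

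With the replicate block *Col4a1* had a P-value of 0.0425 and *Col4a2* one of 0.069 in limma. Same-numbered Norm and Hypox arrays correlated at -0.178 to 0.426, with a median of 0.012 (12 pairs, 3 of them over 0.1). These r are not those of the log2 ratios of all probes, for which any 2 arrays had r from 0.0298 to 0.679. Replicate 4 of both groups lay on slide 1, and what else a shared number stands for is not known. Of the correlations, 8 of 36 pairs passed, against 1 with slide means removed, 2 without the 2 farthest arrays and 29 in the deposited values. That of *Col4a1* with *Col4a2* was 0.776 with slide means removed, where its adjusted permutation P-value was 0.0742. The cause of these differences was not tested. Dim probes limit *Nid2*, *Col4a6* and *Lama4* most.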
